A study of Komagataella phaffii GS115 with 2 samples.

Results

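In the yeast Komagataella phaffii GS115, 132 of 5040 listed genes (2.62%) carry the name of an assembly contig in their identifier in place of a chromosome name. They were chosen by identifier alone, as every gene whose identifier does not begin with PAS_chr, so no measured value enters the rule. The prefix PAS_c121 holds 18 of them, PAS_FragB 69, PAS_c131 20 and PAS_FragD 25. The other 4908 genes carry 7 prefixes that begin with PAS_chr. The study mapped H3K36me3, trimethylated lysine 36 of histone H3, by chromatin immunoprecipitation and sequencing (ChIP-seq) in GS115 cells that the series describes as wild type. All samples form 1 group of 2 libraries, with no treatment, time or carbon source in the labels, and 1 set of values, deposited with replicate 1, was analysed. The values are FPKM, fragment counts that the authors scaled by gene length and by a fragment total, without input or H3 as a reference. There is no replicate error, the depth is unknown and no test of a difference was possible, so what follows describes how these genes compare within 1 set of values.

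The RefSeq annotation of the GS115 assembly ASM2700v1 holds all 132 identifiers, and it does not place them on sequences of their own. There they are the last genes of chromosomes 1, 3 and 4. PAS_c121 is followed by PAS_FragB at the end of chromosome 1, and together they make up its last 87 of 1538 genes (5.66%). PAS_c131 makes up the last 20 of 1198 genes of chromosome 3 (1.67%), and PAS_FragD the last 25 of 971 genes of chromosome 4 (2.57%). Chromosome 2 has no such genes. They are therefore called contig-named genes here. The annotation table gives them no product, so no function is given, and identifiers are used throughout.

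H3K36me3 is, in the budding yeast Saccharomyces cerevisiae, placed over the bodies of transcribed genes by the methyltransferase Set2, which travels with elongating RNA polymerase II. There the mark recruits a histone deacetylase complex that keeps transcription from starting inside genes. The ends of yeast chromosomes are known for repeated sequence and, in S. cerevisiae, for silenced genes. Komagataella phaffii, long called Pichia pastoris, is a methylotrophic yeast used to make recombinant proteins, and GS115 is a histidine-requiring strain of it.

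The contig-named genes had nearly the same H3K36me3 signal as the genes with PAS_chr names. Their median was 138 FPKM (quartiles 123 and 144 FPKM, range 37.1 to 178 FPKM). The PAS_chr genes had a median of 138 FPKM as well (quartiles 126 and 148 FPKM, range 20.3 to 363 FPKM). The difference of the medians, contig-named minus PAS_chr, was -0.0017 on the scale of log2(FPKM + 1). Taken against PAS_chr genes of similar length, in 10 length classes, it was -0.0044. Below the PAS_chr median lay 68 of 132 contig-named genes (51.5%), against 50% of all 5040 genes. The contig-named genes hold 2.73% of the summed gene length and 2.67% of the summed product of FPKM and length.

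Over genes of all lengths together, the spread and the shares of low and high genes were also close in both sets. The contig-named mean was 133 ± 20.6 FPKM, against 136 ± 19.7 FPKM in PAS_chr genes (SD over 132 and 4908 genes). The corresponding coefficients of variation were 15.5% and 14.4%. Taken against PAS_chr genes of similar length, the SDs were 0.269 and 0.215 on the log2(FPKM + 1) scale. A gene was counted as low or high when it lay more than 25% below or above the PAS_chr median, that is, under 104 or over 173 FPKM. Low genes numbered 11 of 132 (8.33%), against 295 of 4908 PAS_chr genes (6.01%) and 6.07% of all genes. High genes numbered 3 of 132 (2.27%), against 109 PAS_chr genes (2.22%) and 2.22% of all genes. Both shares were near those of all genes. The sets were less alike among genes of at least the median length, where 7.46% of contig-named and 2.49% of PAS_chr genes were low. With each contig left out in turn, the share of low genes ran from 6.14% without PAS_c121 to 11.1% without PAS_FragB, and was 9.35% without PAS_FragD. The coefficient of variation ran likewise from 13.9% without PAS_c131 to 17.65% without PAS_FragB, so it lay on either side of the 14.4% of PAS_chr genes. It was 14.0% without the last gene of each chromosome, against 14.4% in PAS_chr genes treated alike. The low gene nearest the lower limit had 102 FPKM and the next gene above it 107 FPKM. At the upper limit the nearest values were 176 FPKM for a high gene and 172 FPKM for one not counted.

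**Figure D1:**
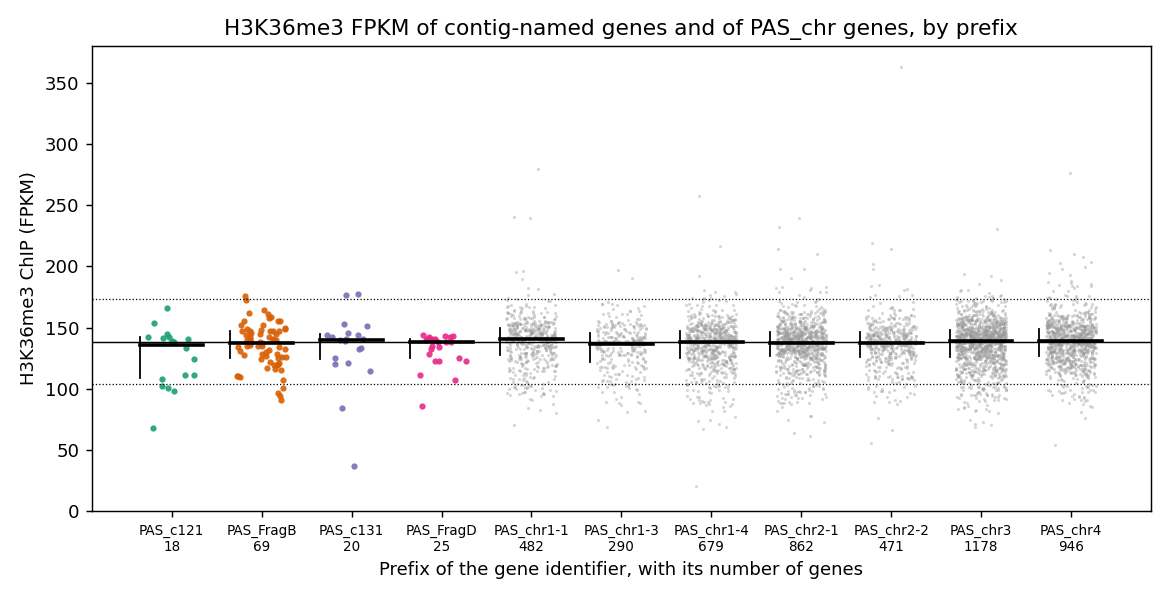
H3K36me3 FPKM of every gene (points) by identifier prefix, with the number of genes under each name, contig-named prefixes in colour on the left and PAS_chr prefixes in grey. The thick bar is the median and the thin vertical line spans the quartiles, while the horizontal lines mark the PAS_chr median and the limits 25% below and above it. The 4 contig-named medians, from 136 to 140.1 FPKM, lie close to the PAS_chr median of 138 FPKM, and no PAS_FragD gene exceeds 144 FPKM.

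The 4 contigs had like medians and differed in spread. The medians were 136 FPKM in PAS_c121, 137 FPKM in PAS_FragB, 140.1 FPKM in PAS_c131 and 138 FPKM in PAS_FragD. On the log2(FPKM + 1) scale these medians differed from that of PAS_chr genes by -0.027, -0.010, 0.018 and -0.0031, in the same order. The medians of the 7 PAS_chr prefixes, of 290 to 1178 genes each, ran from 137 to 140.4 FPKM. The coefficient of variation was 22.8% in PAS_c131, 19.5% in PAS_c121, 13.3% in PAS_FragB and 10.5% in PAS_FragD. Among the 7 PAS_chr prefixes it ran from 13.8% to 15.8%, so PAS_c131 and PAS_c121 lay above that range and PAS_FragB and PAS_FragD below it. The contigs hold far fewer genes than those prefixes, and 1 gene can set the spread of a small contig. Without its last gene PAS_c131 had a coefficient of variation of 15.1%, inside the range, and without its lowest gene PAS_c121 had 15.8%.

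In PAS_c121, the contig nearest the interior of chromosome 1, low genes were most frequent. Of its 18 genes 4 were low (22.2%), none was high, and the range was 68.0 to 166 FPKM. Among the 7 PAS_chr prefixes the share of low genes ran from 4.33% to 8.28%. In PAS_c121 the shorter genes had the lower median. Its 10 genes under 1197.5 nt, the median length of all genes, had a median of 111 FPKM. They included 3 of the 4 low genes. The 8 longer genes of the contig had a median of 139.8 FPKM. PAS_chr genes under 500 nt had a median of 137 FPKM, and those from 500 nt to the median length 135 FPKM. Short PAS_chr genes were thus not as low, and the reason for the difference was not tested. The lowest gene of PAS_c121, PAS_c121_0016 (428 nt), had 68.0 FPKM, 0.49 times the PAS_chr median. It lay between PAS_c121_0015 (3225 nt) at 143 FPKM and PAS_c121_0017 (508 nt), the highest of the contig, at 166 FPKM. Neighbours thus differed here by up to 1.28 on the log2(FPKM + 1) scale. PAS_c121_0018, PAS_c121_0005 and PAS_c121_0006 lie side by side and had 112, 102 and 101 FPKM, and the last 2 of them were low. The other low gene, PAS_c121_0012 (741 nt), had 98.3 FPKM, between genes at 111 and 142 FPKM. The 2 longest genes of the contig, PAS_c121_0007 (4617 nt) and PAS_c121_0004 (3735 nt), had 141 and 154 FPKM.

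PAS_FragB, the largest contig, resembled the PAS_chr genes in level and in its shares of low and high genes. Of its 69 genes 4 were low (5.80%) and 1 was high (1.45%). Values ran from 90.8 to 176 FPKM, with quartiles at 125 and 148 FPKM. Its lowest gene, PAS_FragB_0076 (444 nt), had 90.8 FPKM and lay beside PAS_FragB_0039 (2523 nt), also low at 94.1 FPKM. The genes on either side of this pair, PAS_FragB_0075 and PAS_FragB_0040, had 156 and 145 FPKM. The 2 genes of the pair differ widely in length, and the signal between them was not examined. The other low genes were PAS_FragB_0059 (2061 nt) at 101 FPKM and PAS_FragB_0069 (603 nt), the last gene of chromosome 1, at 96.1 FPKM. The highest gene was PAS_FragB_0011 (333 nt) at 176 FPKM, next to PAS_FragB_0010 at 147 FPKM and PAS_FragB_0012 at 149.9 FPKM. All 6 genes from PAS_FragB_0007 to PAS_FragB_0012 lay above the PAS_chr median, between 141 and 176 FPKM. The 6 genes from PAS_FragB_0028 to PAS_FragB_0033 all lay below the PAS_chr median, between 119 and 137 FPKM. So did the 6 from PAS_FragB_0054 to PAS_FragB_0059, between 101 and 135 FPKM. Such runs were not counted in PAS_chr genes. The longest contig-named gene, PAS_FragB_0002 (9030 nt), had 142 FPKM.

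PAS_c131 held both the lowest and the highest contig-named gene. Its last gene and the last of chromosome 3, PAS_c131_0020 (1704 nt), had 37.1 FPKM, 0.27 times the PAS_chr median, beside PAS_c131_0019 at 153 FPKM. It was the second lowest of all 5040 genes, and it alone lowered the length-weighted mean of the contig to 128 FPKM, against 135 FPKM without it. The second low gene, PAS_c131_0003 (1332 nt), had 84.6 FPKM between PAS_c131_0002 at 139 FPKM and PAS_c131_0004 at 134 FPKM. The 2 high genes of the contig, PAS_c131_0011 (402 nt) and PAS_c131_0012 (414 nt), lie side by side and had 178 and 176 FPKM. The genes around this pair, PAS_c131_0010 and PAS_c131_0013, had 143 and 141 FPKM. The first gene, PAS_c131_0001 (568 nt), had 120.0 FPKM, and the gene with the highest number, PAS_c131_0021 (1515 nt), had 152 FPKM.

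PAS_FragD was the most even of the contigs. Its quartiles were 125 and 141 FPKM, and its highest gene, PAS_FragD_0021 (1875 nt), had only 144 FPKM. None of its 25 genes exceeded that value, by construction, whereas 34.0% of PAS_chr genes and 33.8% of all genes did. Among the other contigs the value was exceeded by 24 of 69 genes in PAS_FragB, 5 of 20 in PAS_c131 and 3 of 18 in PAS_c121. In the last 25 genes named PAS_chr4, which lie next to PAS_FragD, 4 genes (16%) exceeded it. This limit was chosen after the values were seen. The one low gene, PAS_FragD_0010 (582 nt), had 85.9 FPKM between PAS_FragD_0011 at 139.9 FPKM and PAS_FragD_0009 at 141 FPKM. Without it the contig ran from 107 to 144 FPKM with a coefficient of variation of 7.67%. The gene with the lowest number, PAS_FragD_0002 (3288 nt), is the last gene of chromosome 4 and had 143 FPKM, while the low PAS_FragD_0010 lies at place 6 from that end. PAS_FragD_0031 (1599 nt), with the highest number, had 111 FPKM. Only 1 of the 25 genes (4%) is shorter than 500 nt, against 14.4% of all contig-named genes.

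**Figure D2:**
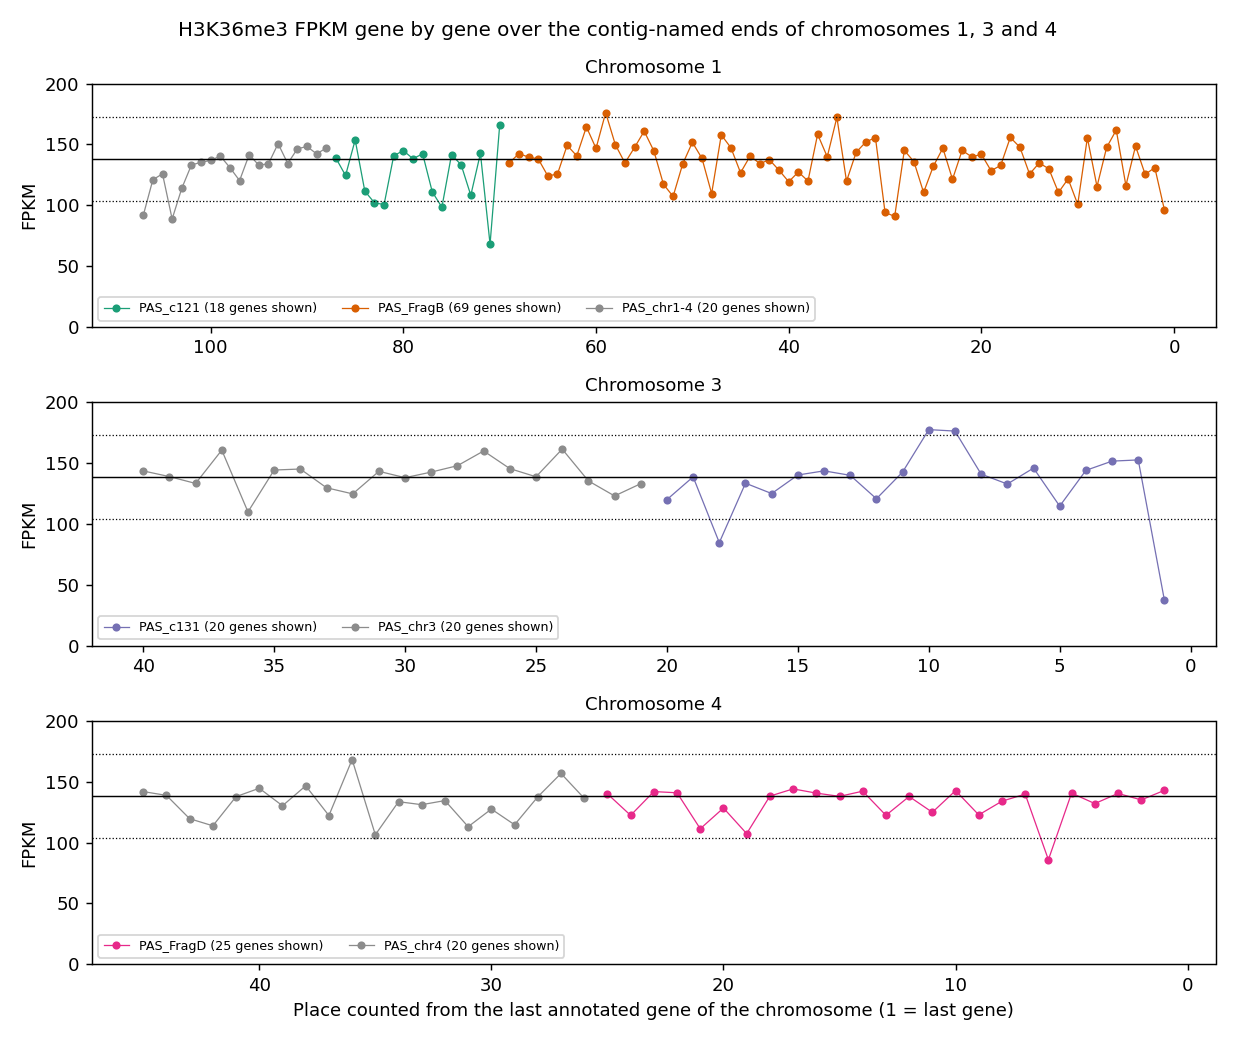
H3K36me3 FPKM gene by gene (points joined by lines) over the contig-named genes at the ends of chromosomes 1, 3 and 4, in colour, and the 20 PAS_chr genes before them, in grey. The x axis counts genes back from the last gene of the chromosome, and the horizontal lines mark the PAS_chr median and the limits 25% below and above it. Low values appear as single genes or adjacent pairs, such as the last gene of chromosome 3 at 37.1 FPKM beside one at 153 FPKM. Some neighbours lie off the median, such as that of PAS_c121_0012 at 111 FPKM.

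Across the 4 contigs, low and high values fell in single genes or in pairs of adjacent genes. The 11 low genes ranged from 37.1 to 102 FPKM and in length from 333 to 2523 nt, with a median of 741 nt. Their 20 immediate neighbours had a median of 139 FPKM. Of these 20, 4 were themselves low, against 6.07% of all 5040 genes. They are the pairs PAS_c121_0005 with PAS_c121_0006 and PAS_FragB_0039 with PAS_FragB_0076, each counted from both sides. Of the 6 neighbours of high genes 2 were high, against 2.22% of all genes, again a pair counted from both sides. Neighbours of low and high PAS_chr genes were not counted. All 3 high genes were shorter than 500 nt, from 333 to 414 nt. Of the 109 high PAS_chr genes 66 were also under 500 nt. Below 0.5 of the PAS_chr median lay 2 contig-named genes, PAS_c131_0020 and PAS_c121_0016. That is 2 of 132 (1.52%), against 10 of 4908 PAS_chr genes (0.204%) and 0.238% of all genes. Such genes were few in both sets, and the share rests on 1 gene in each of 2 contigs. Adjacent genes of the same contig differed by a median of 0.17 on the log2(FPKM + 1) scale over 128 pairs, against 0.16 over 4901 pairs of PAS_chr genes. Spearman's rho between adjacent genes was 0.0091 over the 128 contig-named pairs and 0.15 over the PAS_chr pairs. The pairs share genes and 1 library, so these are descriptions.

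The number in the identifier mostly follows the order along the chromosome. It ascends toward the chromosome end in PAS_c121, PAS_FragB and PAS_c131 and descends toward it in PAS_FragD. Of the 132 genes 11 have a number out of that order, and they carry the highest numbers of their contig: 18 and 19 in PAS_c121, 71 to 77 in PAS_FragB, 21 in PAS_c131 and 31 in PAS_FragD. These 11 genes had a median of 135 FPKM (range 90.8 to 156 FPKM), against 138 FPKM (range 37.1 to 178 FPKM) in the 121 genes in order. One of the 11, PAS_FragB_0076, was low, and none was high. Against PAS_chr genes of similar length the medians were 0.0036 and -0.0046 on the log2(FPKM + 1) scale. The range of the 11 lay inside that of the 121.

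Genes with upper and with lower numbers were compared within each contig, and the 4 contigs did not differ in 1 direction. In PAS_FragB the upper 34 numbers had a median of 135 FPKM with 3 low genes, and the lower 34 a median of 139.7 FPKM with none. The middle gene by number, PAS_FragB_0039, is itself low at 94.1 FPKM and stands in neither group. In 3 groups of 23 genes by number the PAS_FragB medians were 141, 134 and 135 FPKM, with 8, 14 and 14 genes below the PAS_chr median. In PAS_c131 the upper 10 numbers had a median of 145 FPKM, and the lower 10 a median of 136 FPKM. In PAS_FragD the upper 12 numbers had a median of 139 FPKM, and the lower 12, nearer the chromosome end, a median of 137 FPKM, with PAS_FragD_0017 in the middle left out. In PAS_c121 the upper 9 numbers had a median of 112 FPKM and a median length of 666 nt, and the lower 9 had medians of 139 FPKM and 1464 nt. Against PAS_chr genes of similar length the upper and lower numbers had medians of -0.26 and -0.019 on the log2(FPKM + 1) scale. Ordered along the chromosome instead, the 9 outer genes of PAS_c121 had a median of 133 FPKM and the 9 inner ones 138 FPKM, so the gap was smaller once PAS_c121_0018 (112 FPKM) and PAS_c121_0010 (142 FPKM) changed sides. Spearman's rho between FPKM and the number was -0.0093 in PAS_c121, -0.15 in PAS_FragB, 0.35 in PAS_c131 and -0.097 in PAS_FragD, over 18, 69, 20 and 25 genes of 1 library.

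Values overlapped across each of the 3 places where PAS_chr names give way to contig names, with medians of the contig-named side both above and below the other. The first 5 genes of PAS_FragD had a median of 140.1 FPKM (111 to 142 FPKM), and the last 5 named PAS_chr4 had 136 FPKM (115 to 157 FPKM). The first 5 genes of PAS_c131 had a median of 125 FPKM (84.6 to 139 FPKM), and the last 5 named PAS_chr3 had 135 FPKM (123 to 162 FPKM). The first 5 genes of PAS_c121 had a median of 124 FPKM (102 to 154 FPKM), and the last 5 named PAS_chr1-4 had 146 FPKM (134 to 148 FPKM). Where PAS_c121 meets PAS_FragB, PAS_FragB_0071 (1767 nt) had 135 FPKM and PAS_c121_0017 had 166 FPKM. The first and last genes at the 3 joins with PAS_chr names, such as PAS_c121_0002 at 139 FPKM and PAS_chr1-4_0651 at 147 FPKM, or PAS_FragD_0029 (1931 nt) at 140.1 FPKM and PAS_chr4_0908 at 136 FPKM, differed by 0.038 to 0.15 on the log2(FPKM + 1) scale.

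Compared with stretches of as many PAS_chr genes on the same chromosome, the contig-named genes again had like medians. Of all 5040 genes 6.07% were low and 2.22% high. The 87 on chromosome 1 had a median of 137 FPKM with 8 low genes (9.20%). The 87 PAS_chr genes next to them had 137 FPKM with 5 low genes (5.75%). The 87 at the other end of the chromosome had 135 FPKM with 12 low genes (13.8%). On chromosome 3 the 20 contig-named genes had a median of 140.1 FPKM with 2 low and 2 high genes (10% each). The 20 next to them had 141 FPKM with no low or high gene. The 20 at the other end had 137 FPKM with 1 low (5%) and 2 high genes (10%). On chromosome 4 the 25 contig-named genes had a median of 138 FPKM with 1 low gene (4%). The 25 next to them had 133 FPKM with 2 low genes (8%). The 25 at the other end had 137 FPKM with 2 low (8%) and 3 high genes (12%).

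Since contig names fall at chromosome ends, genes were also compared at the same number of places from an end. In the outermost 10 places the 30 contig-named genes, at the far ends of chromosomes 1, 3 and 4, had a median of 140.2 FPKM (range 37.1 to 178 FPKM). The 50 PAS_chr genes at the other 5 ends had a median of 133 FPKM (range 55.7 to 219 FPKM). The ranges overlapped from 55.7 to 178 FPKM, and the difference of the medians was 0.080 on the log2(FPKM + 1) scale. Against PAS_chr genes of similar length the 2 medians were -0.00029 and -0.042 on that scale. Low genes numbered 4 of 30 (13.3%) and 10 of 50 (20%), and high genes 2 of 30 (6.67%) and 6 of 50 (12%). The 3 contig-named ends did not agree among themselves, with medians of 128 FPKM in PAS_FragB, 145 FPKM in PAS_c131 and 138 FPKM in PAS_FragD. The medians of the other 5 ends ran from 129.8 to 148 FPKM. From place 11 to 25 the medians were 136 FPKM in 40 contig-named genes and 136 FPKM in 80 PAS_chr genes. Low genes there numbered 1 of 40 (2.5%) and 8 of 80 (10%). From place 26 to 50, where all 25 contig-named genes belong to PAS_FragB, the medians were 137 FPKM and 138 FPKM in 175 PAS_chr genes. Low genes there numbered 2 of 25 (8%) and 15 of 175 (8.57%). Beyond place 50 the medians were 139 FPKM in 37 contig-named genes and 138 FPKM in 4603 PAS_chr genes. Low genes there numbered 4 of 37 (10.8%) and 262 of 4603 (5.69%). All 4 were the low genes of PAS_c121 described above, and none of the PAS_FragB genes in this class was low. The share was thus higher in contig-named genes in this class, through PAS_c121 alone, and lower in the other 3.

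**Figure D3:**
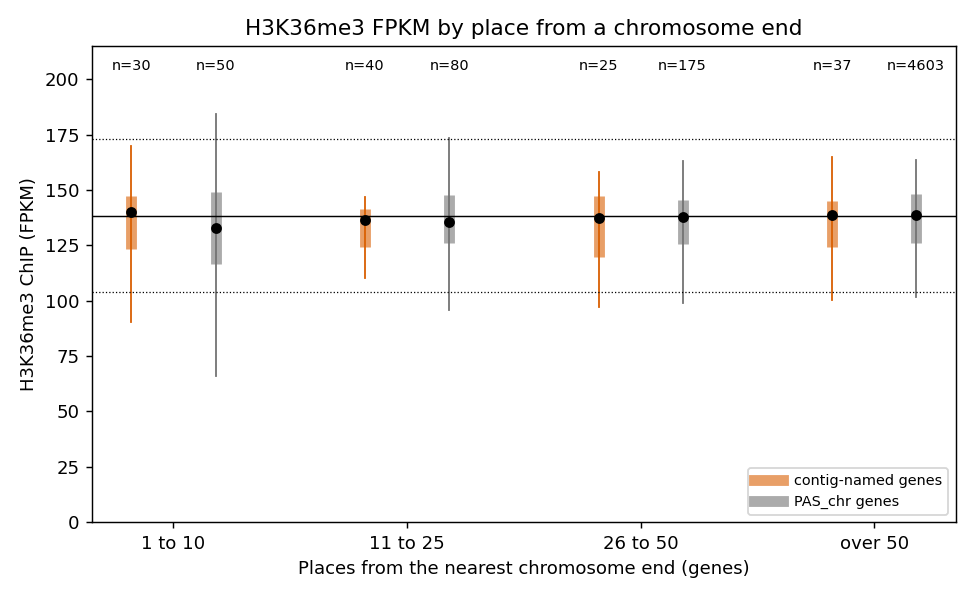
H3K36me3 FPKM by number of places from the nearest chromosome end, for contig-named genes (orange, left in each pair) and PAS_chr genes (grey, right). Dots are medians, thick bars the quartiles, thin lines the 5th to the 95th percentile over genes, and n the number of genes. In the outermost 10 places the medians are 140.2 and 133 FPKM, and in the other classes they lie within 1 FPKM of each other.

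Genes under 500 nt had the widest spread in both sets. The 19 contig-named genes under 500 nt had a coefficient of variation of 22.8%, against 22.2% in 508 such PAS_chr genes. They had 3 low and 3 high genes (15.8% each), and the PAS_chr genes had 62 low (12.2%) and 66 high ones (13.0%). From 500 nt to the median length the coefficients were 13.5% in 46 contig-named genes and 16.4% in 1947 PAS_chr genes. The 67 contig-named genes of at least the median length had a coefficient of variation of 14.5%, against 10.0% in 2453 such PAS_chr genes, and without PAS_c131_0020 it was 11.4%. Of these 67 genes 5 were low (7.46%) and none was high, against 61 low PAS_chr genes (2.49%) and 4 high ones. The 5 long low genes were PAS_c131_0020, PAS_c131_0003, PAS_FragB_0039, PAS_FragB_0059 and PAS_c121_0005. They lay in 3 contigs, and 2 of them in the outermost 10 places. In the longest of the 10 length classes the 17 contig-named genes ran from 110.5 to 156 FPKM, with none low or high. Of 491 PAS_chr genes in that class 3 were low (0.611%) and 1 was high (0.204%), so the absence among 17 genes says little. Median lengths were alike, at 1218 nt in contig-named and 1197 nt in PAS_chr genes. Spearman's rho between FPKM and length was 0.13 over contig-named and 0.12 over PAS_chr genes, and within contigs it was 0.57 in PAS_c121, 0.47 in PAS_FragD, 0.026 in PAS_FragB and -0.26 in PAS_c131. FPKM divides by length, and the lengths are those of the RefSeq table, so a length that differs from the one the authors used would enter these relations.

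**Figure D4:**
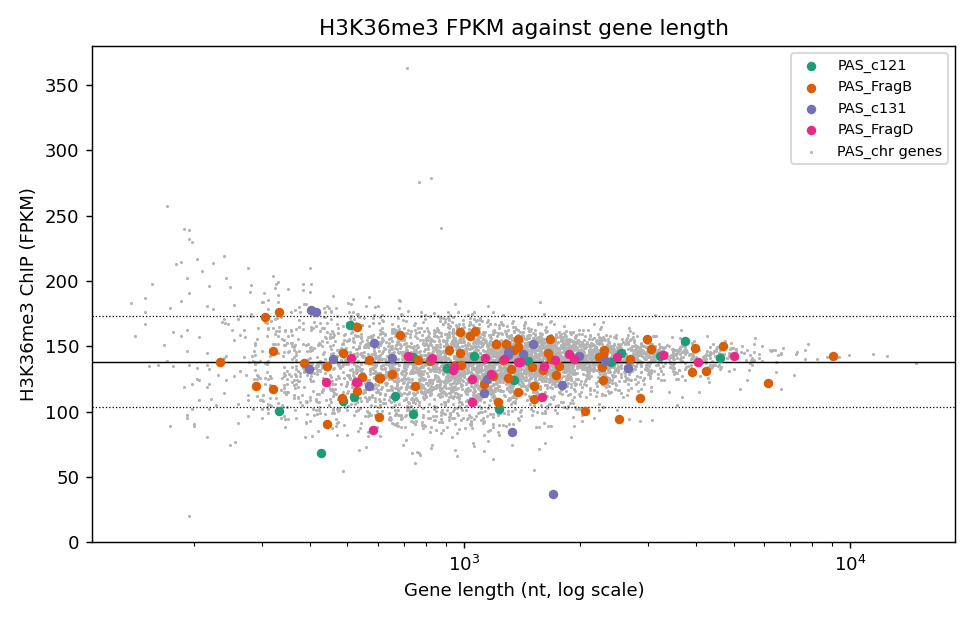
H3K36me3 FPKM against gene length on a log axis, with contig-named genes coloured by contig and PAS_chr genes in grey. The horizontal lines mark the PAS_chr median and the limits 25% below and above it. Contig-named genes lie within the cloud of PAS_chr genes except PAS_c131_0020 (1704 nt), which at 37.1 FPKM lies below every PAS_chr gene of at least 500 nt.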

How the data were processed

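Chromatin of GS115 cells was immunoprecipitated with an H3K36me3 antibody and sequenced, per the labels' protocols. The FPKM values were calculated by the authors and deposited with replicate 1, with no statement on whether the second library entered them. Neither input nor H3 was divided out, so background, nucleosome density, copy number and mappability enter them. The submitters' processing notes list MACS2, deepTools, SAMtools, Bowtie2, Trimmomatic 0.39 and FastQC 0.12.1 and give no roles. The sources used here do not name the genome build, the annotation or the counting tool.

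All 5040 identifiers matched a locus tag of the RefSeq table, used for order, chromosome and length (92.2% of lengths are multiples of 3). No coordinate is given. FPKM times length summed to 100.1% of the total expected when fragments in these genes are the scaling total. No common step worth 1 read was found in 100 genes (9.70% of all genes within 0.05 of a whole read at the best total, against 10% by chance), so depth is unknown. Medians, shares and differences of log2(FPKM + 1) were computed with matplotlib 3.10.9, pandas 2.3.3, scipy 1.17.1 and numpy 2.4.6 in Python 3.11.15. The calculation of the median differences was checked on values shuffled within length classes, with known shifts added to the contig-named genes. That check covers the arithmetic only and says nothing about these genes. With 1 set of values no p-value or replicate error is given. Named genes are the lowest, highest, first- and last-numbered of each contig and those past the 25% limits, with their neighbours and the joins. A few others were chosen after their values were seen. The rule for the contig-named genes uses identifiers only. This rule, the groupings and the limits were nevertheless set with earlier results of these data known. Alternatives were other pseudocounts, length classes, limits, a minimum length of 500 nt, a filter at 1 FPKM, and leaving out each contig or the outermost genes.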

Additional observations from a re-analysis of the deposited data

How the results depend on the processing

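No paired analysis was possible because only 1 set of values of 1 group was used, and leaving out a replicate was not run for the same reason. Of 78 recomputed values 72 stayed within a margin set for each result. It was the 95% binomial interval of the median or share over genes or, for the coefficient of variation, its SD over contigs. For upper against lower numbers it came from the interval of the contig median. These intervals treat genes as independent and are wide for small contigs. The 78 include pseudocounts and a filter that could change little, so the count does not measure stability. The difference of the medians ran from -0.0036 to 0.00014 on the log2(FPKM + 1) scale, and the length-adjusted one from -0.010 to 2.2e-05. Of the 51 recomputed differences 5 changed sign, none larger than 0.027 in size before or after. Among them that of PAS_c131 was -0.024 without the outermost 10 genes of each end. The share of low genes was 18.2% with a limit of 15% and 1.52% with a limit of 50%, against 15.0% and 0.204% in PAS_chr genes. The share of high genes was 0% with a limit of 50% and 0% among genes of at least 500 nt, against 0.326% and 0.932% in PAS_chr genes. Without PAS_c131 it was 0.893%, and without the outermost 10 genes 0.980%. The difference between upper and lower numbers of PAS_c121, -0.31, was -0.058 among genes of at least 500 nt and -0.053 in chromosome order, settings added after the data were examined; the cause was not tested beyond the change of genes and order. The filter at 1 FPKM removed no gene. Leaving out the last gene of each chromosome, also added, gave a coefficient of variation of 14.0% in contig-named genes, below the 14.4% of PAS_chr genes.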

Other observations

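Contig-named genes that overlap an adjacent gene in the RefSeq table were 4 of 132 (3.03%), against 146 of 4908 PAS_chr genes (2.97%). PAS_FragB_0050 and PAS_FragB_0051 had 128 and 133 FPKM, and PAS_FragD_0022 and PAS_FragD_0021 had 138 and 144 FPKM, so none was low or high. Lengths that are not multiples of 3 belonged to 12 contig-named genes (9.09%) and 381 PAS_chr genes (7.76%). The 12 had a median of 128 FPKM (68.0 to 166 FPKM), against 138 FPKM (73.5 to 240.3 FPKM) in the 381, and they included both PAS_c121_0016 and PAS_c121_0017, the lowest and the highest gene of PAS_c121.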
